A study of Mus musculus with 12 samples.

Results

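This account concerns 36 genes that mark the liver cells other than hepatocytes: Kupffer cells and other immune cells, endothelial cells, stellate cells and fibroblasts, and bile duct cells. The genes were taken by name and not by a cut on a measured value, although earlier results of these data were known. They came from the 21887 protein-coding genes of a RefSeq table of assembly GRCm38.p6 (chromosomes 1 to 19, X and Y), in which all 36 were found. The question was whether R-loop peaks mapped from liver lie on them. R-loops were mapped by immunoprecipitation of RNA-DNA hybrids with the antibody S9.6, in a series of 12 libraries that includes controls. Per the labels, the libraries formed 6 groups of 2: untreated immunoprecipitate, immunoprecipitate treated with RNase H1 (an enzyme that degrades the RNA of a hybrid), and input DNA, each from the mouse hepatoma line HEPA1-6 and from liver of wild-type C57/Bl6 mice. The labels give hepatocyte as the cell type of both sources, and they do not say whether hepatocytes were separated from the other cells of the liver, or how old the mice were. The data were 1 peak list per source, called on a merged immunoprecipitate against input, so there is no replicate spread and no p-value for a difference between the sources. Values of single libraries were not analysed here, nor were those treated with RNase H1.

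An R-loop forms where a new transcript pairs with its template DNA strand and leaves the other strand single, and R-loops are known above all from the bodies, starts and ends of transcribed genes. Kupffer cells are the resident macrophages of the liver, sinusoidal endothelial cells line its capillaries, stellate cells store vitamin A and make matrix, and bile duct cells line the ducts. Each of these cells transcribes genes that hepatocytes and hepatoma cells mostly keep silent. A peak is a stretch of the genome with more immunoprecipitated than input DNA. It is not a measure of expression, and in a tissue, fewer cells of a type and fewer hybrids per cell cannot be told apart.

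The HEPA1-6 list held 28717 peaks and the liver list 14908, with lowest scores of 10 in both and median scores of 21 and 22. The authors gave each peak a whole-number score on an unstated scale, and scores are therefore read within a list only. How deeply the libraries were sequenced is unknown. The second list is called the liver list after its label. Of 36 genes typical of hepatocytes (such as Alb and Trf), 6 held a peak in it (16.7%, 95% Wilson interval 7.87 to 31.9%), an interval that includes the 29.7% of all protein-coding genes. In HEPA1-6, 8 of them held a peak (22.2%, 11.7 to 38.1%), against 42.0% of all protein-coding genes, so a low share there was not particular to markers of other cells. In the liver list, 5 of the 36 markers held a peak (13.9%, 6.08 to 28.7%), close to the 6 of 36 hepatocyte genes. A low share in the liver list is thus not shown to be particular to the markers either.

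The liver list carried peaks at few of the marker genes, and at none that HEPA1-6 lacked. A peak was counted for a gene if it overlapped the gene body or the 1 kb beyond either end. By this rule 5 of the 36 markers held a liver peak (13.9%, 6.08 to 28.7%), against 29.7% of all protein-coding genes. These were Cd74, Cd68, Csf1r, Dcn and Sox9. In HEPA1-6 the same 5 genes and in addition Stab1 and Col3a1 held a peak, which made 7 of 36 (19.4%, 9.75 to 35.0%), against 42.0% of all protein-coding genes. Both lists had a peak at 5 markers (13.9%, 6.08 to 28.7%), an interval that includes the 27.8% of all genes. A peak in the liver list alone was found at 0 of 36 markers (0 to 9.64%), against 1.89% of all genes, a share that corresponds to under 1 gene in 36. The remaining 29 markers held no peak in either list. The intervals cover counting error only, and enrichment too weak for the authors' threshold does not appear in a list.

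**Figure D1:**
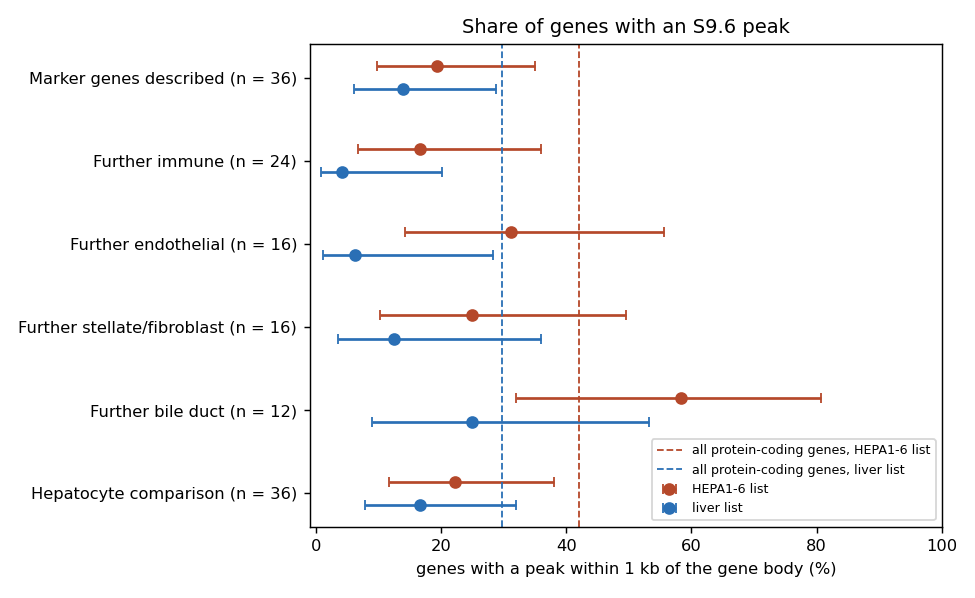
Share of genes (%, horizontal axis) with a peak within 1 kb of the gene body, for the 36 markers, further markers of the same cell types and hepatocyte genes (vertical axis, with the number of genes). Points are shares, bars are 95% Wilson intervals, and dashed lines are the shares of all protein-coding genes, 42.0% in HEPA1-6 and 29.7% in the liver list; the 36 markers sit at 19.4% and 13.9%.

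The markers were about as long as other genes. Their median length was 16.1 kb (interquartile range 7.76 to 40.7 kb), and that of all protein-coding genes was 17.2 kb (5.67 to 44.3 kb). Among the 11 markers under 10 kb, 3 held a peak in HEPA1-6 and 3 in the liver list (27.3% each, 9.75 to 56.6%), against 30.1% and 21.7% of all genes of that length. Of the 19 markers from 10 to 50 kb, 4 held a HEPA1-6 peak (21.1%, 8.51 to 43.3%) and 2 a liver peak (10.5%, 2.94 to 31.4%), against 49.6% and 33.6%. None of the 6 markers of 50 kb and longer held a peak in either list (0 to 39.0%), against 47.3% and 35.2%. The intervals lay below the background for both lists from 10 to 50 kb and for HEPA1-6 at 50 kb and longer, and included it for the liver list in the longest class and for both lists in the shortest. The difference between classes was not tested. The 6 long genes were Ptprc, Adgre1, Pecam1, Stab2, Tek and Reln. Reln, which encodes the secreted glycoprotein reelin and marks stellate cells, is the longest at 460 kb. Of 267 protein-coding genes at least as long as Reln, 132 held a peak in neither list, 85 one in HEPA1-6 and 107 one in the liver list.

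Several of these peaks belonged as much to a neighbouring gene as to the marker. On the 7 markers lay 14 HEPA1-6 peaks, and on the 5 markers 8 liver peaks. Of the 8 liver peaks, 3 did not touch the marker's body at all, and 3 lay wholly inside it. When only peaks were counted that touched no other protein-coding gene with its own 1 kb flanks, 3 markers held a liver peak, Csf1r, Dcn and Sox9 (8.33%, 2.87 to 21.8%), against 22.0% of all protein-coding genes. In HEPA1-6 these 3 and Col3a1 remained (11.1%, 4.41 to 25.3%), against 32.1%. All 8 liver peaks overlapped a HEPA1-6 peak, in each case of the same strand. Of all 12633 liver peaks with a strand, 86.0% overlapped a HEPA1-6 peak, whatever its strand. Of the 14 HEPA1-6 peaks, 7 overlapped a liver peak, against 31.8% of all 27539 HEPA1-6 peaks with a strand. All 22 had a strand assigned by the authors.

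The highest-scoring peaks lay at Cd68, the gene of a lysosomal membrane glycoprotein of macrophages (chromosome 11, 69664213 to 69666170, minus strand). In HEPA1-6, all 1958 bp of this gene lay under 1 peak of 11510 bp (69661265 to 69672774, score 297). In the liver list, a peak of 7877 bp (69664898 to 69672774, score 186) covered 1273 bp of it, and a second peak (69662584 to 69663839, score 23) ended 373 bp short of the gene. The score of 297 was above 99.7% of HEPA1-6 peaks and that of 186 above 99.1% of liver peaks. Most of these bases were not Cd68. The gene took up 17.0% of the HEPA1-6 peak and 16.2% of the large liver peak, and both peaks ended at the same base beyond Eif4a1, which they covered to 100%. Eif4a1 encodes the RNA helicase of the translation initiation complex, a gene transcribed in all cells, and lies 765 bp from Cd68 on the same strand. The second liver peak overlapped Mpdu1, a gene of sugar donor use in glycosylation, on the other side of Cd68. All 3 peaks carried the minus strand, which is that of Cd68, Eif4a1 and Mpdu1 alike, so strand does not assign them to 1 of the genes.

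The sequences before these gene starts are shown because all lie under the peaks, while they differ in CG dinucleotides, a mark of promoters of broadly transcribed genes. Each is the 250 bases before the start of the gene, 5′ to 3′ on the gene's strand (RefSeq, GRCm38.p6), in lower case with CG in capitals. Eif4a1 (chr11:69672424-69672673, minus strand) held 18 CG, Mpdu1 (chr11:69662650-69662899, minus strand) 16 CG and Cd68 (chr11:69666171-69666420, minus strand) 4 CG. All 250 bases of each lay under a peak in both lists.
Eif4a1: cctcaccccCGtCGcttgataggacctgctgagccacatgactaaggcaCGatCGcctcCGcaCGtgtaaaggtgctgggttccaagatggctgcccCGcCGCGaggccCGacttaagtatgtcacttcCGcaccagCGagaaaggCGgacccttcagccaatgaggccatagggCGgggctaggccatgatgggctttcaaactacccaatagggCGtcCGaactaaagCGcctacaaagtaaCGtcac
Mpdu1: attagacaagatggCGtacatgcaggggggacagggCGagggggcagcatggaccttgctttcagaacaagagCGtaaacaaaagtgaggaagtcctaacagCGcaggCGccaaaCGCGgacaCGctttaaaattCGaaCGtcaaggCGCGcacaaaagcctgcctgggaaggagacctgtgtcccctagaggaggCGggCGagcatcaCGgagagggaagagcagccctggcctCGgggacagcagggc
Cd68: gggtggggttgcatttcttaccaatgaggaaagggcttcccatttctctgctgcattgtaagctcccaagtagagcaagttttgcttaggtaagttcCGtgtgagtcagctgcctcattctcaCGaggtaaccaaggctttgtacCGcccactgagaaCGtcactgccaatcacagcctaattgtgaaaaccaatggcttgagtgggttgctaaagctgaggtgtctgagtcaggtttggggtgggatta

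CG-rich promoters were also found among the markers without a peak. Krt7, a keratin of bile duct cells, and Kdr, the VEGF receptor of endothelial cells, each held 16 CG in this window, as many as Mpdu1, and Clec4f, a lectin specific to Kupffer cells, held 0. The Kdr window precedes a start that lies inside the gene boundaries used for the counts (75932827 to 75979072), so it is not upstream of the whole gene. None of the 3 windows had a base under a peak of either list. They lie at chr15:101412153-101412402 (plus strand), chr5:75978456-75978705 (minus strand) and chr6:83656117-83656366 (minus strand), and were chosen for this contrast after their values were seen.
Krt7: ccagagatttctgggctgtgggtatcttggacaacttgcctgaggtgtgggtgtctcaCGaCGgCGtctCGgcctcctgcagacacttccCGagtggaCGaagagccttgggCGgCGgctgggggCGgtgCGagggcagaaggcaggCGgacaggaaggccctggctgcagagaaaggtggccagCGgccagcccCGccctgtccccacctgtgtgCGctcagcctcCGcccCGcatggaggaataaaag
Kdr: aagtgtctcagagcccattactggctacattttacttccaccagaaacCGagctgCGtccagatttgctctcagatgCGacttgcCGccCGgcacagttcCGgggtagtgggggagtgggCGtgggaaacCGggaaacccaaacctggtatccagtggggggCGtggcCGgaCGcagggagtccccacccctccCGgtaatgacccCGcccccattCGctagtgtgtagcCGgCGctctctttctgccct
Clec4f: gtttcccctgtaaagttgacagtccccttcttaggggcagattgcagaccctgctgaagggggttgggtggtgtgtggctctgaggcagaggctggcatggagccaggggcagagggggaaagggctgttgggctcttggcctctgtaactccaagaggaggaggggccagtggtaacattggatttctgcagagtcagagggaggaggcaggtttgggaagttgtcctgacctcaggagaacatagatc

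Over 21263 such windows of protein-coding genes, 19.9% lay under a HEPA1-6 peak and 13.0% under a liver peak. The shares were 35.7% and 24.3% for the 7794 windows with 15 or more CG, and 4.04% and 2.18% for the 7170 with under 5. Eif4a1 and Mpdu1 thus belong to the class that most often lay under a peak, and Cd68 to the class that least often did. A promoter sequence was held for 23 of the 36 markers (63.9%), under the 80% needed, so a comparison of the markers as a set by CG or GC content is void. Among those 23, Reln had the window richest in CG (37 CG) and held no peak.

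**Figure D2:**
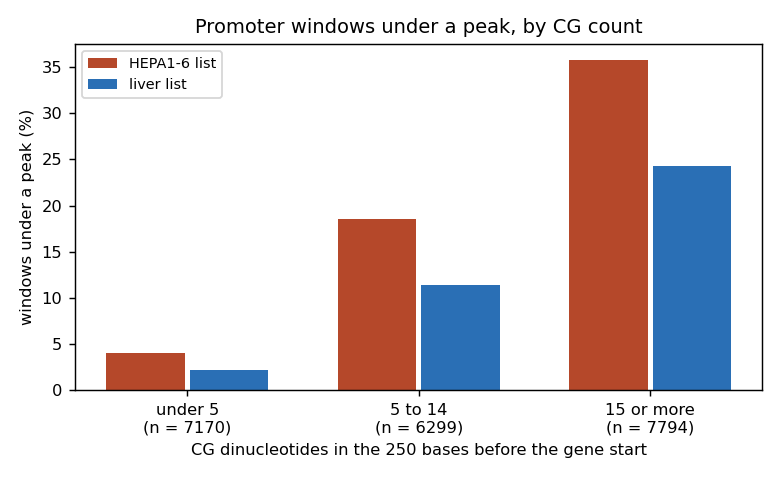
Share of promoter windows under a peak (%, vertical axis, from 0) by the number of CG dinucleotides in the 250 bases before the gene start (horizontal axis, number of windows in brackets), in each list. The share is 4.04% in HEPA1-6 and 2.18% in the liver list under 5 CG, and 35.7% and 24.3% at 15 CG or more.

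The other macrophage markers ranged from 2 peaks in each list to none. Csf1r, the receptor for colony stimulating factor 1 on which macrophages depend (chromosome 18, 61105572 to 61131139), held 2 peaks in each list. The first pair lay inside the gene, about 2 kb from its lower-coordinate boundary. The HEPA1-6 peak spanned 61107350 to 61107603 (254 bp, score 18) and the liver peak 61107600 to 61107955 (356 bp, score 17), so that they shared 4 bp. Both scores were low, above 36.2% and 25.6% of the peaks of their lists, and both peaks had the plus strand. The second pair had the minus strand and lay at the other end, where Hmgxb3 lies 137 bp from Csf1r. The HEPA1-6 peak there (61129885 to 61135548, score 30) reached 1255 bp into Csf1r, and the liver peak (61131885 to 61132126, score 70) lay 745 bp outside it, within Hmgxb3. Peaks covered 5.90% of the body of Csf1r in HEPA1-6 and 1.39% in the liver list. Lyz2 (lysozyme) had its nearest HEPA1-6 peak 52.9 kb away and its nearest liver peak 55.1 kb away, and Adgre1 (the F4/80 antigen) 94.3 and 106 kb away.

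Of the leukocyte and antigen presentation genes, 1 of 4 held a peak in each list (4.56 to 69.9%). For so few genes the interval includes the share of all protein-coding genes, 42.0% in HEPA1-6 and 29.7% in the liver list. Cd74, the invariant chain that escorts MHC class II molecules (chromosome 18, 60803849 to 60812652), held a HEPA1-6 peak of 6067 bp (60808857 to 60814923, score 34), of which 3796 bp lay in the gene. The liver peak (60813525 to 60814923, score 29) began 872 bp beyond Cd74 and lay within the last stretch of the HEPA1-6 peak. It overlapped Tcof1, a gene of ribosomal RNA synthesis, and entered the count through the 1 kb flank alone. Both peaks had the plus strand, but the strands of Cd74 and Tcof1 were not available here, so strand does not assign them to either gene. Tcof1 itself held 8 HEPA1-6 and 5 liver peaks. Ptprc, which encodes CD45, the surface phosphatase of all leukocytes, was 333 kb from a HEPA1-6 peak and 441 kb from a liver one. H2-Aa and H2-Ab1, the chains of an MHC class II molecule, are neighbours 13.3 kb apart and share their surroundings. Their nearest HEPA1-6 peaks were 76.7 and 57.1 kb away and their nearest liver peaks 152 and 132 kb.

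None of the 8 Kupffer cell markers held a peak in either list (0 to 32.4%), against 42.0% of all protein-coding genes in HEPA1-6 and 29.7% in the liver list. The interval includes the share of all genes in the liver list. These 8 markers were the lectin Clec4f, the scavenger receptor Marco, the complement receptor Vsig4, the secreted Cd5l, the phosphatidylserine receptor Timd4 and the complement genes C1qa, C1qb and C1qc. The nearest HEPA1-6 peak lay 78.0 to 373 kb from these genes and the nearest liver peak 113 to 426 kb. C1qa, C1qb and C1qc stand side by side within a few kilobases and are close to 1 observation. The nearest HEPA1-6 peak to them was 78.0, 90.6 and 83.9 kb away, and the nearest liver peak 426, 411 and 420 kb. Clec4f was 87.5 kb from a HEPA1-6 and 113 kb from a liver peak.

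Endothelial markers were likewise without peaks of their own. Pecam1 (the adhesion molecule CD31), Cdh5 (VE-cadherin), Kdr and Tek (the angiopoietin receptor) held none in either list. For these 4 genes the interval is 0 to 49.0%, which includes the 42.0% and 29.7% of all protein-coding genes. Pecam1 came closest in HEPA1-6, with a peak 2.91 kb away, and its nearest liver peak was 40.7 kb away. For Cdh5 the distances were 85.8 kb in both lists. Kdr and Tek had the same nearest boundary in both lists, at 204 kb and 175 kb. Among the sinusoidal endothelial markers, Stab1, a scavenger receptor (chromosome 14, 31139017 to 31168651, minus strand), had a HEPA1-6 peak in its flank (31169282 to 31173930, score 30). This peak began 630 bp outside Stab1 and overlapped the neighbouring Nisch, which held 9 HEPA1-6 and 3 liver peaks. The nearest liver peak to Stab1 was 1.20 kb away and so just outside the flank. Stab2, a related receptor, had peaks at 7.18 kb (HEPA1-6) and 7.23 kb (liver), the lectin Clec4g at 23.2 and 63.3 kb, and Lyve1, a hyaluronan receptor, at 23.5 and 135 kb.

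**Figure D3:**
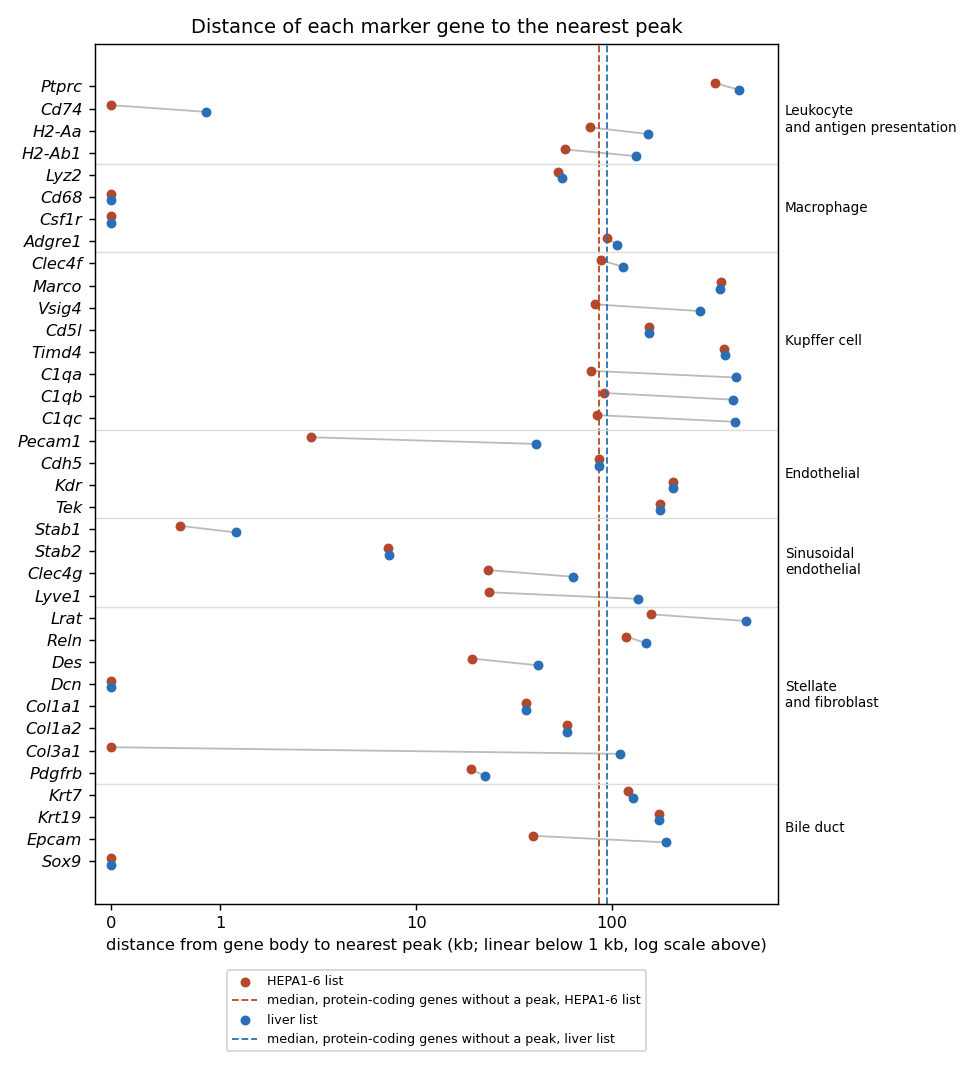
Distance from the body of each of the 36 markers to the nearest peak (kb, horizontal axis, linear below 1 kb and logarithmic above) in HEPA1-6 and in the liver list, grouped by cell type on the vertical axis. Dashed lines are the medians of protein-coding genes without a peak, 85.5 kb and 94.5 kb; the 8 Kupffer cell genes lie from 78.0 to 373 kb in HEPA1-6 and from 113 to 426 kb in the liver list.

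The marker with most peaks was Dcn, which encodes decorin, a small proteoglycan that binds collagen and is made by stellate cells and fibroblasts (chromosome 10, 97479500 to 97518163). It held 7 peaks in HEPA1-6 and 2 in the liver list, all of the plus strand, all wholly within the gene and none touching another gene. In HEPA1-6, the highest-scoring peak spanned 97486174 to 97491877 (5704 bp, score 112) and scored above 98.0% of that list. The other 6 scored 16, 18, 44, 42, 27 and 17, and lay at intervals along the gene, the farthest ending 38.3 kb from its lower-coordinate boundary in a gene of 38.7 kb. Both liver peaks lay within the highest-scoring HEPA1-6 peak: 97488004 to 97488633 with a score of 27, and 97489898 to 97491501 with a score of 67, above 95.4% of the list. The other 6 HEPA1-6 peaks overlapped no liver peak. Peaks covered 37.2% of the gene in HEPA1-6 and 5.78% of it in the liver list. A count of 7 or more HEPA1-6 peaks was reached by 919 protein-coding genes (4.20%), of which 118 were no longer than Dcn. A count of 2 or more liver peaks was reached by 2991 genes (13.7%). Over the whole genome, HEPA1-6 peaks covered 56.42 Mb and liver peaks 21.56 Mb. This marker of matrix-producing cells thus held its more extended signal in the hepatoma line, whose list also covers more of the genome.

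The other stellate cell and fibroblast genes held 1 peak in all. With Dcn, 2 of the 8 genes of this class held a HEPA1-6 peak (7.15 to 59.1%) and 1 a liver peak (2.24 to 47.1%). Both intervals include the share of all protein-coding genes, 42.0% in HEPA1-6 and 29.7% in the liver list. Col3a1, a fibrillar collagen gene (chromosome 1, 45311538 to 45349706, plus strand), held a HEPA1-6 peak of 519 bp (45317201 to 45317719, score 21, plus strand), 5.66 kb into the gene. Its score equals the median of the list. The nearest liver peak was 110 kb away. The other collagen genes Col1a1 and Col1a2, Lrat (the enzyme that esterifies retinol for storage), Reln, Des (the filament protein desmin) and Pdgfrb (the PDGF receptor beta) held no peak in either list. Distances ran from 18.9 kb (Pdgfrb) to 158 kb (Lrat) in HEPA1-6 and from 22.5 kb (Pdgfrb) to 480 kb (Lrat) in the liver list. Pdgfrb lies 20.5 kb from Csf1r, so these markers of different cells are neighbours on the chromosome.

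Of the 4 bile duct markers, only Sox9 held a peak, and it did so in both lists. For 1 of 4 genes the interval is 4.56 to 69.9%, which includes the 42.0% and 29.7% of all protein-coding genes. Sox9 encodes a transcription factor of bile duct cells and of progenitor cells (chromosome 11, 112782210 to 112787757). The HEPA1-6 peak spanned 112781809 to 112785411 (score 37) and covered 57.7% of the gene. The liver peak began at the same base and ended at 112782555 (score 19), so that it covered 346 bp at the lower-coordinate end of the gene and 401 bp outside it. Both had the minus strand, and neither overlapped another gene of the table. The strand of Sox9 was not available here, so whether these peaks lie on the strand of the gene is left unsaid. In their lists they scored above 82.1% and 36.8% of peaks. The keratin genes Krt7 and Krt19, and Epcam, an adhesion molecule of epithelial cells, held no peak. Krt19 lay 174 kb from the nearest peak of either list, Krt7 120 kb and 127 kb, and Epcam 39.2 and 188 kb, in HEPA1-6 and the liver list respectively.

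**Figure D4:**
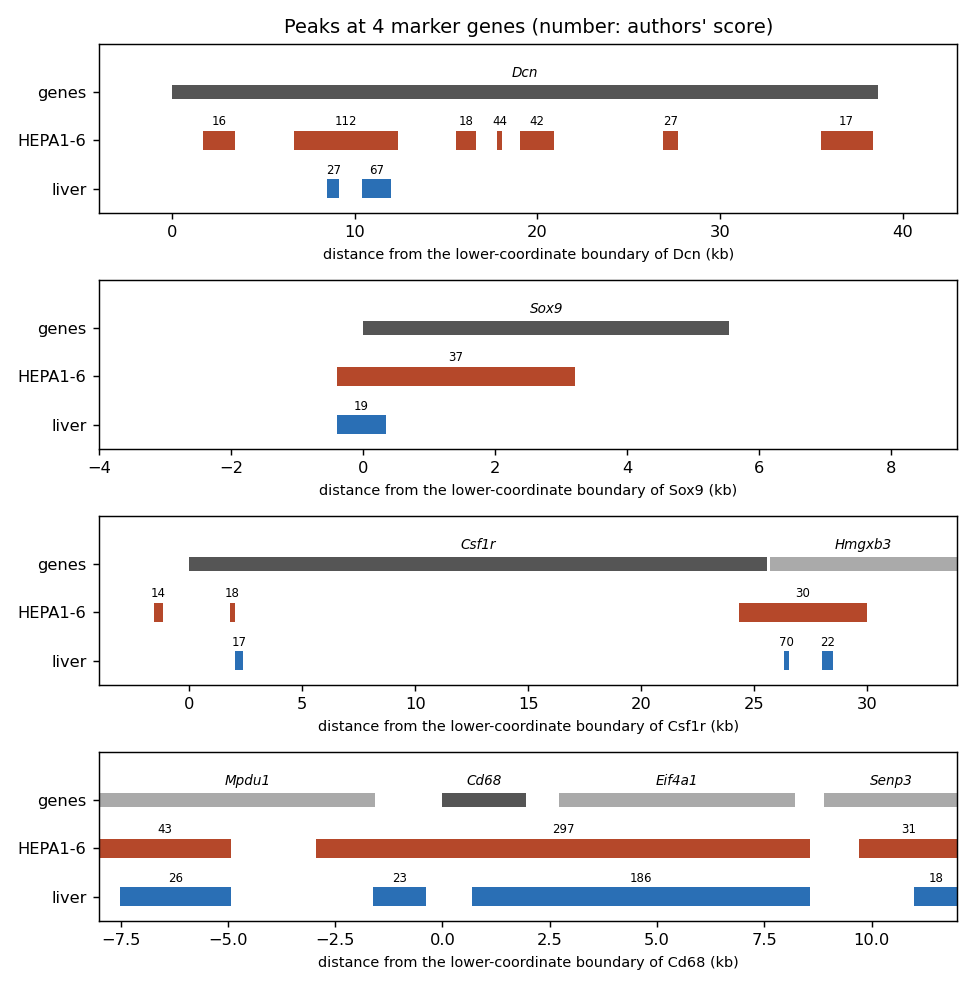
Peaks along Dcn, Sox9, Csf1r and Cd68 (horizontal axis, distance in kb from the lower-coordinate boundary of the gene), with protein-coding genes, HEPA1-6 peaks and liver peaks on separate rows and the authors' score above each peak. Dcn holds 7 HEPA1-6 and 2 liver peaks, and the peaks with scores of 297 and 186 at Cd68 run on over Eif4a1; peaks outside the 1 kb flank are drawn but were not counted.

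Distances gave the same ordering of the lists as the counts. Of the 29 markers without a peak in either list, 23 were farther from a liver than from a HEPA1-6 peak, 5 were equally far and 1, Marco, was nearer to a liver peak (353 against 357 kb). The liver list is the shorter, which by itself widens distances. The median distance of markers without a peak was 83.9 kb in HEPA1-6, where all protein-coding genes without a peak had 85.5 kb. In the liver list the medians were 135 kb (31 markers) and 94.5 kb. More than 100 kb separated 67.7% of these 31 markers from a liver peak, against 48.7% of such genes at large, whereas in HEPA1-6 the shares were 34.5% and 46.4%. Some markers share a location, so these are fewer observations than genes.

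Further markers of the same cells gave a similar picture. Of 68 additional genes, 20 held a HEPA1-6 peak (29.4%, 19.9 to 41.1%) and 7 a liver peak (10.3%, 5.08 to 19.8%), against 42.0% and 29.7% of all protein-coding genes. All 7 also held a HEPA1-6 peak. By cell type, the liver counts were 1 of 24 immune, 1 of 16 endothelial, 2 of 16 stellate or fibroblast and 3 of 12 bile duct genes. The HEPA1-6 counts were 4, 5, 4 and 7. The bile duct genes had the highest share in HEPA1-6, 58.3% (32.0 to 80.7%), an interval that includes the 42.0% of all genes. With the 36 markers above, the liver list had a peak at 12 of 104 genes and HEPA1-6 at 27, and 0 genes had one in the liver list alone. At 1.89% of all protein-coding genes, a peak in the liver list alone is rare everywhere, so this 0 is near the background.

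The immune gene among the 7 was Fcer1g, the gamma chain of Fc receptors, whose peak in each list (scores 44 and 30) did not touch this gene alone. The endothelial gene was Flt1, VEGF receptor 1, and it went the other way from Dcn in number. Flt1 held 6 liver peaks against 4 in HEPA1-6, with top scores of 35 and 38, over 6727 bp and 13801 bp. Of the 6, 5 overlapped a HEPA1-6 peak, and the peak at 147699689 to 147700224 on chromosome 5 (score 15) did not. Among stellate cell genes, Sparc, a collagen-binding matrix protein, held 4 HEPA1-6 peaks and 1 liver peak (top scores 39 and 15). Ecm1, an extracellular matrix protein, held 1 HEPA1-6 and 2 liver peaks (29 and 20). The Ecm1 peaks with these scores also touched the neighbouring Tars2 or its 1 kb flank, and the other liver peak (score 14) did not. Among bile duct genes, Anxa4, a calcium-dependent membrane-binding protein, held 10 and 5 peaks (52 and 24), all of the minus strand in the liver list, as the gene. Cldn7, a tight junction protein, held 1 in each list (77 and 37), shared with the neighbouring Elp5. Both Cldn7 peaks had the minus strand, whereas Cldn7 lies on the plus strand.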

How the data were processed

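The data were 2 peak lists, 1 per source. Per the submitters' processing notes the build was mm10 and the tools named were CASAVA 1.8.2, cutadapt, Bowtie2, bedtools, SAMtools and MACS2, with no role or order given. The peak names say that merged immunoprecipitates were compared with input. Calling thresholds and the way strands were assigned are not given in the sources used here. Each peak has a score, deposited as whole numbers from 10 upward, which served to rank peaks within a list.

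Starts were made 1-based, and peaks were intersected with RefSeq genes (GRCm38.p6) in Python 3.11.15 with pandas 2.3.3. A peak was counted for a gene if at least 1 bp of it fell in the gene body or within 1 kb of either end. Shares have 95% Wilson intervals (SciPy 1.17.1). The background was the same count over all 21887 protein-coding genes and over 3 length classes, divided at 10 and 50 kb. No test was made across genes, because 1 pooled list per source has no replicates. The overlap code was tested on simulated data with planted peaks.

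All 36 markers are named whatever their values. Of the 68 further markers, those with a liver peak are named, except that 1 item is not reported here by name. The markers, the further lists and the comparisons were chosen with earlier results of these data known, and the length classes, the CG classes (5 and 15) and the printed promoters after seeing the peaks. Gene strands came from the RefSeq promoter table, which lacked 13 of the 36 markers, among them Cd74, Csf1r, Dcn and Sox9. Alternatives changed the flank (0 or 5 kb), the assignment by midpoint, the peaks used (higher-scoring 50%, equal numbers, strand assigned) and peaks shared by neighbouring genes.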

Additional observations from a re-analysis of the deposited data

How the results depend on the processing

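Of 21 alternative values for the 3 main counts, 16 stayed within 1.5 times the reported one. With the midpoint of the peak, 3 markers held a liver peak and 3 a peak in both lists, since the midpoints of the liver peaks at Cd68 and Cd74 lie outside these genes and their flanks. With peaks that touch no other protein-coding gene, the counts were 4 in HEPA1-6, 3 in the liver list and 3 in both. Without a flank the counts were 6, 4 and 4. The HEPA1-6 count ranged from 4 to 8 and the liver count from 3 to 6. No marker held a liver peak alone in any of the 7 alternatives, against 1.40 to 3.67% of all protein-coding genes. This 0 is near the background each time. In each alternative, the share of all protein-coding genes with a peak was above that of the markers. This share was from 32.1 to 46.3% in HEPA1-6 and from 20.8 to 33.6% in the liver list. The difference was not beyond counting error in every alternative. For a peak in both lists, the interval of the main count already included the share of all genes (27.8%). With the higher-scoring 50% of peaks, the 95% Wilson intervals of the markers included the share of all genes in both lists. With equal numbers of peaks, the HEPA1-6 interval included it too. At Dcn, 4 of the 7 HEPA1-6 peaks were in the higher-scoring 50%, and the liver peak at Sox9 was not. No paired analysis was possible because the data are 1 pooled list per source, so the replicate block and leaving out each replicate were not run. The unknown depth limits every statement on a gene without a peak.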
